A study of Mus musculus with 31 samples.

Results

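The transcriptional response of Panc02 spheroids to the soluble products of activated macrophages was followed in 6 of the 31 samples of the series, by setting 3 spheroid samples grown with M1-CM against 3 grown with M0-CM. The members were chosen by their sample labels alone. Panc02 is a murine pancreatic adenocarcinoma line, and the wild-type (WT) cells used here carried no engineered allele. They were grown as spheroids in Matrigel, a basement membrane extract. M0-CM is medium conditioned by unstimulated bone marrow-derived macrophages of C57BL/6J mice, and M1-CM is medium conditioned by the same kind of macrophages after treatment with IFNγ and lipopolysaccharide (LPS), which were washed off before conditioning. Both media also held supernatant of L929 cells, a fibroblast line used as a source of macrophage growth factor, so M0-CM is the control for M1-CM in which the macrophages were left unstimulated. A further group of 3 samples (Ctrl) was kept in plain medium with a matched serum content and is given beside the others for its levels, and it also enters the fit, where all 9 samples share one estimate of the spread. The spheroids themselves were cultured without macrophages. The study describes its experiments in general as done on biological replicates, but the labels do not say whether these samples came from separate cultures, and the number of spheroids pooled in a sample is not given in the sources used here. The p-values measure the spread between these samples, which may be in part technical.

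Macrophages driven by IFNγ and LPS, the classical or M1 state, secrete tumour necrosis factor, interleukins, interferons, chemokines and nitric oxide. In epithelial and tumour cells such cytokines act through receptors that feed NF-κB, the JAK-STAT pathway and C/EBP transcription factors. Known targets of these factors are chemokines that recruit neutrophils and monocytes, acute phase proteins, complement components, and feedback inhibitors that shut the signal off, while interferons induce antiviral genes and antigen presentation. The comparison of M1-CM with M0-CM asks which of these genes the cancer cells themselves express differently when the macrophages were activated.

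Libraries were of total RNA, and the total count per sample was between 62884050 and 66795598 with M0-CM and between 43875429 and 60517326 with M1-CM. Levels are given as CPM, the counts of a gene relative to the library's total, scaled by edgeR's TMM method, and 3 values in a row are those of replicates 1, 2 and 3. Among the M0-CM and M1-CM samples, 1 library stood apart from its group. M1-CM replicate 2 had the lowest total count. Among 10690 genes with a mean of at least 5 CPM it lay more than 2-fold above the mean of the other M1-CM samples for 767 genes and more than 2-fold below it for 410. In the other 5 samples these numbers lay between 53 and 160 above and between 25 and 260 below. The part of this library in the results was not tested. Many of the counts and medians below are also given without it or without another M0-CM or M1-CM sample. Of all 9 samples, Ctrl replicate 2 had a count for the fewest genes, 19448 against 21189 to 23544 in the others. Its total count was the highest (78498230). It shares in the estimate of the spread, and no single Ctrl sample was left out in turn, so its part was not tested. The keratin genes *Krt8* (163 to 451 CPM over the 9 Ctrl, M0-CM and M1-CM samples) and *Krt18* (33.3 to 96.3 CPM) and the pancreatic transcription factor gene *Pdx1* (12.7 to 27.7 CPM) were expressed, whereas the epithelial adhesion genes *Epcam* and *Cdh1* were listed at 0 in all 9. Of 23 macrophage markers, 3 were high enough to be tested (*Cd68*, *Lyz2* and *Cd163*), with a summed level of the list of 23.4 to 27.8 CPM with M0-CM and 21.3 to 34.4 CPM with M1-CM, and *Itgam*, *Tyrobp* and *Spi1* were listed at 0 in all 9 samples. Of 12 lymphocyte markers 1 was tested, *Ighm*, and of 12 fibroblast and stellate markers 8 were, with a median log2 fold change of M1-CM over M0-CM of 0.14 (-0.03 without M1-CM replicate 1). The 8 tested of 17 pancreatic epithelial and ductal markers had a median of -0.56, with 5 lower, and with 1 sample left out it lay between -0.62 and -0.16. *Krt8* was at 244, 451 and 329.6 CPM with M0-CM and 245, 163 and 313 CPM with M1-CM. In none of these lists had a gene an unadjusted p under 0.05 in edgeR. In samples of whole spheroids, a smaller number of cells that express a gene and less RNA of it per cell cannot be told apart.

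Of 55487 genes, 19207 had enough counts to be tested. M1-CM raised 3 genes over M0-CM in edgeR's quasi-likelihood test, which is 0.0156% of the genes tested. They were *Cxcl5*, a neutrophil-attracting chemokine, *Lcn2*, the iron-siderophore binding protein lipocalin 2, and *C3*, the central component of complement. A call took a Benjamini-Hochberg adjusted p below 0.05 together with a log2 fold change (log2FC, M1-CM over M0-CM) beyond 1 in either direction. No gene fell, that is 0 genes or 0% by edgeR and 0 by limma-voom, while 189 were lower at an unadjusted p under 0.05 and the DESeq2 Wald test on the same 9 samples called 10 lower (0.0511% of 19579) and 19 higher (0.097%). Without adjustment, 309 genes were higher at p under 0.05 (1.61% of those tested) and 189 were lower (0.984%). The 3 samples of one group all lay above the 3 of the other for 737 genes that were higher with M1-CM (3.84%) and 774 that were lower (4.03%). These shares are the background against which the counts of each gene group below are read. The median log2FC of all genes tested was -0.00698. Without M1-CM replicate 2, edgeR called *Cxcl5* alone, with 143 genes higher and 127 lower at an unadjusted p under 0.05.

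**Figure D1:**
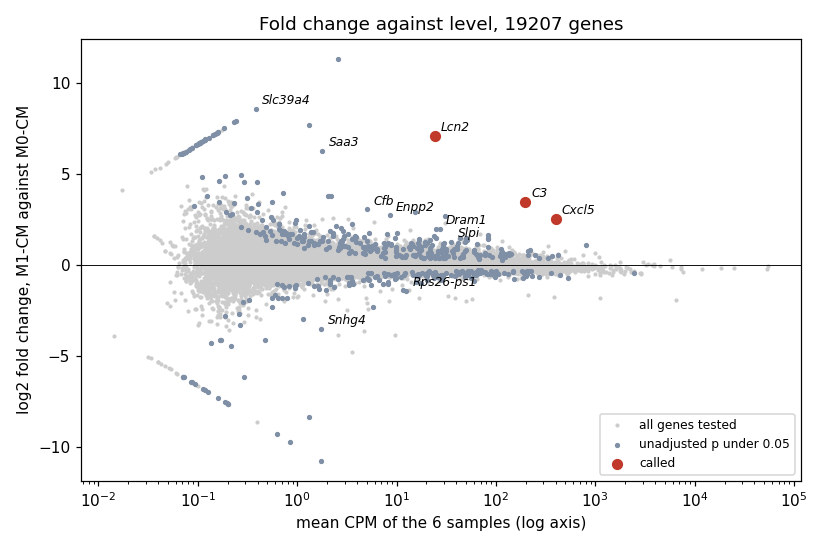
Log2FC of M1-CM against M0-CM (vertical axis) against the mean CPM of the 6 samples (horizontal log axis) for the 19207 genes tested. Grey points are all genes, blue points have an unadjusted p under 0.05 and red points are the 3 called genes. *Cxcl5*, *C3* and *Lcn2* lie above other genes of similar level, and other genes with larger fold changes have lower levels.

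The 3 called genes lie at separate loci of GRCm38. *Cxcl5* (ENSMUSG00000029371) is on chromosome 5, 90759360 to 90761624, plus strand, *Lcn2* (ENSMUSG00000026822) on chromosome 2, 32384633 to 32388252, minus strand, and *C3* (ENSMUSG00000024164) on chromosome 17, 57203970 to 57228136, minus strand, and no other annotated gene shares an exon with them. Sequences upstream of the RefSeq start, in the RefSeq promoter table (GRCm38.p6) were found for 2 of the 3, *C3* and *Lcn2*, and are shown because the genes moved together and belong to a class known as targets of NF-κB and C/EBP. The 250 bases before the RefSeq start were searched on both strands for the κB motif by its consensus, for the GAS motif (TTCNNNGAA) and for the C/EBP consensus (TTNNGNAA). Matches are in capitals. The *C3* sequence is chr17:57228137-57228386, minus strand. Of *Lcn2*, chr2:32387798-32387989 of the minus strand is shown, since the 58 bases after it are annotated as untranslated region in GENCODE M21. That stretch lies before the RefSeq start but inside the span of the gene in GENCODE, which ends at 32388252 because of a transcript that starts further upstream.
C3: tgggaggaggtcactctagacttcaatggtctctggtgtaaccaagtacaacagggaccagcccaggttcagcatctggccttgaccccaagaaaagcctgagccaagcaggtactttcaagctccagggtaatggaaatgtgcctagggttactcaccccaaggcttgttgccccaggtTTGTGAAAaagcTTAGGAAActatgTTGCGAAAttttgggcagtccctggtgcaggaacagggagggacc
Lcn2: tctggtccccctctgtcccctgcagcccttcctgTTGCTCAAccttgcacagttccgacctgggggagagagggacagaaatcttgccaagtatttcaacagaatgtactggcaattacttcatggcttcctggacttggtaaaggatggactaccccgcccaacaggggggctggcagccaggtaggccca
The *C3* window held 3 C/EBP matches on the coding strand, TTGTGAAA, TTAGGAAA and TTGCGAAA, whose first bases lie 70, 58 and 45 bases before the start, and no κB or GAS match. In *Lcn2*, 1 C/EBP match (TTGCTCAA, as read on the coding strand, with the motif on the other strand) began 216 bases before the start, and a κB match, GGAGTCCTCC, lay in the unprinted stretch, 43 to 34 bases before it. For all 32851 RefSeq promoters of the same length, a κB match was found in 9.55%, a GAS match in 7.02% and a C/EBP match in 36.8%. A match is only a run of letters and no binding was measured here.

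*Cxcl5* encodes a chemokine that attracts neutrophils through the receptor CXCR2. Its level was 119, 117 and 113 CPM with M0-CM and 663, 719 and 662 CPM with M1-CM, so the lowest M1-CM sample lay far above the highest M0-CM sample and the samples within a group were close to each other. The means were 117 ± 3.13 and 682 ± 32.4 CPM (SD, n = 3), a 5.84-fold ratio, and the log2FC was 2.55 (SE 0.17, edgeR adjusted p = 0.000922). In Ctrl it was at 78.1, 117 and 107 CPM, within the range of M0-CM or below it. The gene stayed past the limits in every alternative run, from the other tools and scalings to each M0-CM or M1-CM sample left out in turn.

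*Lcn2* encodes a secreted protein that withholds iron from bacteria by binding their siderophores. It was barely expressed with M0-CM, at 0.424, 0.167 and 0.461 CPM, and reached 43.7, 74.5 and 26.3 CPM with M1-CM. Its M1-CM samples differed among themselves, with the highest in replicate 2 and the lowest in replicate 3, but even the lowest lay far above the M0-CM samples. The means were 0.351 ± 0.16 and 48.2 ± 24.4 CPM (SD, n = 3), a 137-fold ratio. The log2FC was 7.09 (SE 0.74), with an edgeR adjusted p of 0.026. Ctrl samples were at 0, 0.14 and 0 CPM. The next gene along the same strand, 1110008P14Rik (chromosome 2, 32377097 to 32381938, minus strand), lies beyond the 3′ end of *Lcn2*. It was at 11.2, 12.7 and 12.7 CPM with M0-CM and 33.1, 33.7 and 28.2 CPM with M1-CM. Its log2FC of 1.37 (SE 0.22) was not called by edgeR (adjusted p = 0.224) but was by DESeq2 on 9 and on 6 samples (adjusted p = 1.23e-05 and 1.46e-09). It shares exon sequence with *Ciz1* on the opposite strand.

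*C3* encodes the protein whose cleavage all complement pathways share. It was at 51.3, 20.04 and 25.5 CPM with M0-CM and 298, 524 and 256 CPM with M1-CM, and replicate 2 was again the highest of the M1-CM samples. The means were 32.3 ± 16.7 and 359 ± 144 CPM (SD, n = 3), an 11.1-fold ratio. The log2FC was 3.48 (SE 0.40), with an edgeR adjusted p of 0.0435. Ctrl samples were at 25.4, 19 and 18.1 CPM. The calls of *Lcn2* and *C3* depended on single libraries and on the analysis. Both were lost with the replicate number as a block (edgeR adjusted p = 0.16 each), *Lcn2* with limma-voom, and *C3* with other scalings or with the 6 samples alone. *Lcn2* lost its call in edgeR without M0-CM replicate 1, 2 or 3 (adjusted p = 0.184, 0.176 and 0.317). It also lost it without M1-CM replicate 1 or 2 (edgeR adjusted p = 0.103 and 0.0662). *C3* lost its call without M0-CM replicate 2 or 3 (edgeR adjusted p = 0.186 and 0.386) and without M1-CM replicate 1 or 2 (0.11 and 0.0662). Their log2FC values stayed between 6.63 and 7.38 for *Lcn2* and between 3.11 and 3.98 for *C3*.

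**Figure D2:**
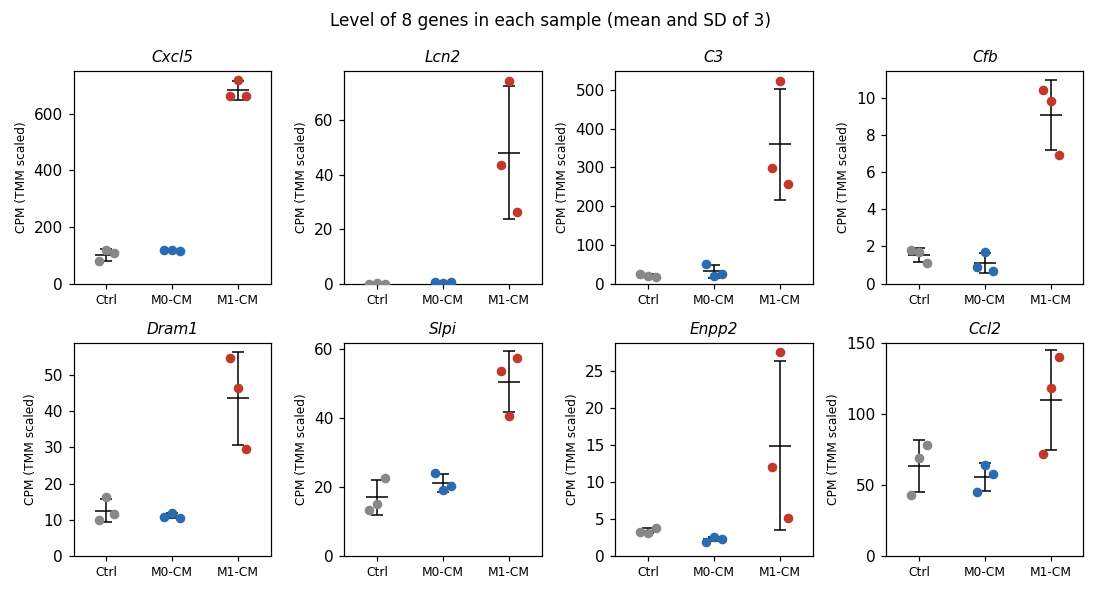
CPM of *Cxcl5*, *Lcn2*, *C3*, *Cfb*, *Dram1*, *Slpi*, *Enpp2* and *Ccl2* in each Ctrl, M0-CM and M1-CM sample (points), with the mean and SD of 3 samples (bars). For all 8 genes the 3 M1-CM points lie above the 3 M0-CM points, and for *Lcn2*, *C3*, *Dram1* and *Enpp2* the M1-CM points are spread widely.

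**Figure D3:**
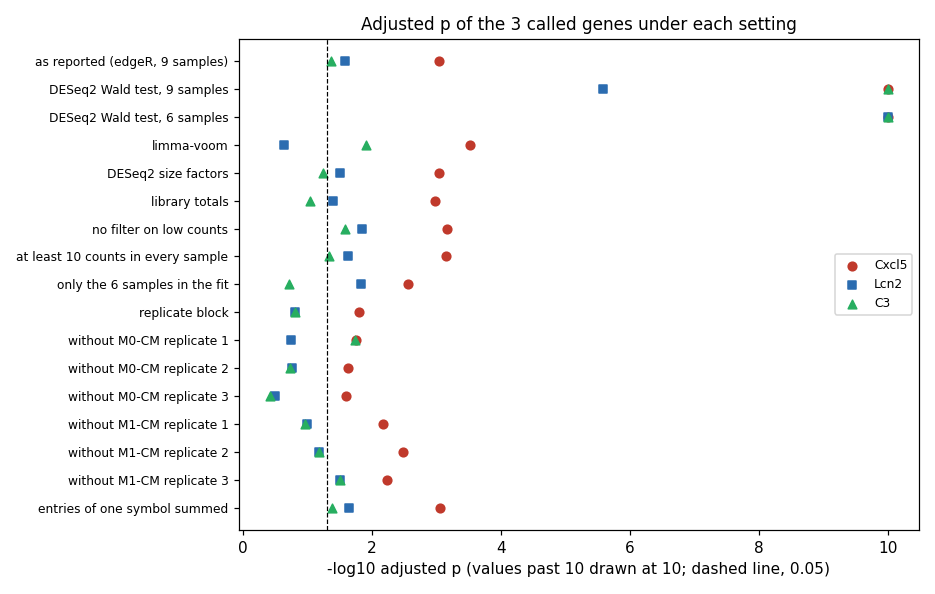
Adjusted p (as -log10, horizontal axis, values past 10 drawn at 10) of *Cxcl5*, *Lcn2* and *C3* in the fit reported here and in each alternative (rows), with the limit of 0.05 as a dashed line. *Cxcl5* lies past the line in every row, whereas *Lcn2* and *C3* cross it.

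Among the neutrophil-attracting CXC chemokines and their receptors, 7 of 9 listed genes were expressed enough to be tested, 6 had a higher mean with M1-CM and 4 of them had an unadjusted p under 0.05, with 5 of the 7 showing no overlap between the groups. *Cxcl5* alone passed the limits. *Cxcl3*, a close relative of *Cxcl5*, was at 28.8, 23.3 and 25.4 CPM with M0-CM and 40.5, 37.9 and 33.2 CPM with M1-CM (log2FC 0.53, SE 0.15, edgeR adjusted p = 0.989). *Cxcl15*, known as lungkine, was at 1.17, 0.984 and 0.922 CPM with M0-CM and 3.01, 2.86 and 1.71 CPM with M1-CM with a log2FC of 1.30 (SE 0.38). The well-known NF-κB target *Cxcl1* was close to the limit of detection, at 0.102, 0 and 0.102 CPM with M0-CM and 0.864, 0.721 and 0.276 CPM with M1-CM, with a log2FC of 3.14 (SE 1.35). Both receptor genes, *Cxcr1* and *Cxcr2*, were listed at 0 in all samples, which is no measure of the protein. The study checked a *Cxcr2* knockout of Panc02 by flow cytometry for CXCR2, and reports reduced spheroid growth in it. The median log2FC of these 7 genes was 0.99, and without M1-CM replicate 2 it was 0.77, with 3 genes at an unadjusted p under 0.05.

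Chemokines of monocytes and lymphocytes were mostly higher without passing the limits. Of 10 genes tested, 9 had a higher mean with M1-CM, and 3 of them had an unadjusted p under 0.05, the same number as without M1-CM replicate 2, where 7 of 10 were higher in mean. Their median log2FC was 1.02, and 0.65 without M1-CM replicate 2. Without M1-CM replicate 1, 5 had such a p, and 2 without M0-CM replicate 1 or M1-CM replicate 3. *Ccl2* and *Ccl7*, ligands of the monocyte receptor CCR2, had log2FC values of 0.98 (SE 0.29) and 1.06 (SE 0.37). *Ccl2* was at 45.1, 64.3 and 58.1 CPM with M0-CM and 71.5, 118 and 140.3 CPM with M1-CM. *Ccl7* was at 19, 26.5 and 33.2 CPM with M0-CM and 34.3, 54.7 and 75.3 CPM with M1-CM. *Cxcl16*, the membrane-bound ligand of CXCR6, was at 1.9, 2.1 and 2.14 CPM with M0-CM and 3.3, 5.95 and 8.23 CPM with M1-CM, with a log2FC of 1.51 (SE 0.37, adjusted p 0.989 in edgeR, 0.0373 and 0.0633 in DESeq2 on 9 and 6 samples). For these 3 genes every M1-CM sample lay above every M0-CM sample, and replicate 1 was the lowest of its group in both media. *Cxcl10*, an interferon-induced ligand of CXCR3, overlapped between the groups, at 0.746, 2.94 and 1.71 CPM with M0-CM and 0.608, 7.46 and 5.92 CPM with M1-CM, and was named after its values were seen. The inflammatory cytokine genes *Tnf* and *Il1b* were listed at 0 in every sample, and of the 9 cytokine and growth factor genes tested 0 had an unadjusted p under 0.05 by edgeR in either direction. *Csf1*, the macrophage growth factor, was at 153, 146 and 145 CPM with M0-CM and 161, 214 and 151 CPM with M1-CM.

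Most tested acute phase and epithelial defence genes were higher with M1-CM. Of 24 genes, 9 were tested, all 9 were higher in mean with M1-CM, and 7 had an unadjusted p under 0.05 and no overlap between the groups, against 1.61% and 3.84% of all genes. The other 15 were too low to be tested. At least *Saa2* and *Saa3* passed the count filter only through their M1-CM samples, so their direction was fixed by the filter. Both are among the 9 and the 7, where they give no independent support. The median log2FC of the 9 tested genes was 2.23, or 2.15 with the gene at 0 in M0-CM set at its bound. Without M1-CM replicate 2 it was 1.86, with 7 again at an unadjusted p under 0.05. *Lcn2* was the only one called by edgeR. DESeq2 on 9 samples called *Lcn2* and *Slpi*, and on 6 samples also *Saa3*, *Hp* and *Lbp*, 5 in all.

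Haptoglobin, *Hp*, which binds free haemoglobin, was at 3.77, 1.68 and 5.36 CPM with M0-CM and 35, 15.5 and 31.2 CPM with M1-CM and its log2FC was 2.92 (SE 0.78, adjusted p 0.989 in edgeR, 0.304 and 3.25e-08 in DESeq2 on 9 and 6 samples). *Slpi*, a secreted inhibitor of leukocyte proteases, was at 23.8, 19 and 20.3 CPM with M0-CM and 53.6, 40.4 and 57.2 CPM with M1-CM, with 1.26 (SE 0.23, adjusted p 0.55 in edgeR, 0.000248 and 1.29e-05 in DESeq2 on 9 and 6 samples). Both genes had M1-CM samples that all exceeded the M0-CM samples, and replicate 2 was the lowest of the 3 M1-CM samples for each. The serum amyloid gene *Saa3* was at 0, 0 and 0.137 CPM with M0-CM and 3.3, 2.84 and 4.5 CPM with M1-CM, or at 0, 0 and 8 counts against 206, 138 and 245. *Saa2* had 0 counts in all M0-CM samples and 11, 12 and 12 with M1-CM, at least 4.43-fold more against a floor of 3 counts per library. *Saa2* and *Saa3* belong to a family of similar genes, so reads could be divided between members. *Lbp*, which delivers LPS to its receptor, was at 1.9, 1.3 and 0.581 CPM with M0-CM and 5.17, 8.61 and 3.99 CPM with M1-CM (log2FC 2.23, SE 0.76). *Orm1*, an orosomucoid, was at 1.86, 2.34 and 1.28 CPM with M0-CM and 5.57, 3.09 and 2.96 CPM with M1-CM (log2FC 1.09, SE 0.39). The exception among abundant members was *Cp*, the copper-carrying ferroxidase ceruloplasmin, which was at 1495, 1584 and 1643 CPM with M0-CM and 1447, 1603 and 1698 CPM with M1-CM and gave 0.01 (SE 0.18).

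Complement genes formed a smaller group around *C3*. Of 27 genes, 14 were tested, 12 had a higher mean with M1-CM, 6 had an unadjusted p under 0.05 (6 also without M1-CM replicate 2, 4 without M0-CM replicate 2 or M1-CM replicate 1) and 0 were lower at that p in edgeR. *Cfb*, factor B, which pairs with C3 in the alternative pathway convertase, was at 0.892, 1.7 and 0.683 CPM with M0-CM and 10.4, 9.87 and 6.93 CPM with M1-CM. This gave a log2FC of 3.05 (SE 0.40) with an adjusted p of 0.0761 by edgeR and of 1.75e-11 and 6.14e-11 by DESeq2 on 9 and 6 samples, so that it missed the limits in one tool and passed in the other. *Cfb* shares exon sequence with the readthrough gene Gm20547 on the same strand, between which counts may be split. *C4b*, the C4 component of the classical and lectin pathways, was at 19, 5.77 and 14.1 CPM with M0-CM and 46.1, 37.3 and 26.6 CPM with M1-CM (log2FC 1.5, SE 0.42). The classical pathway proteases *C1ra* and *C1rb* had log2FC values of 0.53 (SE 0.16) and 0.70 (SE 0.25). *C1ra* was at 113, 111 and 111 CPM with M0-CM and 196, 130 and 158 CPM with M1-CM. *C1rb* was at 23.7, 15.1 and 24 CPM with M0-CM and 38.3, 31.2 and 32.9 CPM with M1-CM. These 4 genes, from factor B to *C1rb*, did not overlap between the groups, whereas *Clu*, the complement inhibitor clusterin, did, at 14.2, 6.34 and 6.94 CPM with M0-CM and 45.9, 15.4 and 12.5 CPM with M1-CM, where replicate 1 was the highest sample in either medium.

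None of the genes in the lists of NF-κB genes, cytokine receptors and cytokine-responsive transcription factors was called by edgeR. Their RNA levels do not measure the activity of these pathways. All 26 listed NF-κB subunits, kinases and feedback genes were tested, 16 had a higher and 10 a lower mean with M1-CM, 4 had an unadjusted p under 0.05, all higher, and the median log2FC was 0.20. It was 0.09 without M0-CM replicate 1 or M1-CM replicate 3, with 3 and 4 genes at that p. Of these 4, *Bcl3* and *Nfkb1* encode an atypical IκB protein and the p50 precursor that it binds. *Bcl3* was at 3.04, 2.04 and 3.62 CPM with M0-CM and 5.83, 10.2 and 5.38 CPM with M1-CM (log2FC 1.30, SE 0.34). *Nfkb1* was at 103, 107 and 104 CPM with M0-CM and 124, 156 and 142 CPM with M1-CM (log2FC 0.42, SE 0.13). The other two were *Tnip1* and *Tnip3*, partners of the deubiquitinase A20 that restrain the pathway. *Tnip1* was at 12, 12.7 and 11 CPM with M0-CM and 17.6, 30.4 and 16.7 CPM with M1-CM (log2FC 0.86, SE 0.23). *Tnip3* was at 0.366, 1.83 and 0.666 CPM with M0-CM and 2.75, 2.53 and 2.87 CPM with M1-CM (log2FC 1.51, SE 0.61). In all 4 the groups did not overlap. The IκBα gene *Nfkbia*, a feedback inhibitor that is commonly read as a marker of acute NF-κB activity, was named after its values were seen, at 55.6, 67.1 and 74.7 CPM with M0-CM and 54.9, 54.7 and 87.3 CPM with M1-CM, with overlapping groups.

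Receptors for macrophage cytokines and LPS had a median log2FC of 0.31 over 20 tested genes, and 0.16 without M1-CM replicate 2 and 0.19 without M0-CM replicate 1. *Il6st*, the shared gp130 subunit of the IL-6 family receptors, was at 317, 259.7 and 286 CPM with M0-CM and 362, 430.2 and 339 CPM with M1-CM (log2FC 0.39, SE 0.16). *Lifr*, its partner for leukaemia inhibitory factor, was at 27.1, 12.5 and 20.7 CPM with M0-CM and 47.4, 43 and 21.3 CPM with M1-CM. *Tnfrsf1b*, a receptor for tumour necrosis factor, was at 59.1, 53.2 and 53.5 CPM with M0-CM and 57.1, 119 and 68.8 CPM with M1-CM. These were the 3 with an unadjusted p under 0.05, and there was 0 of 20 in edgeR without M1-CM replicate 2 or without M0-CM replicate 2 or 3. Of 26 transcription factors, JAK kinases and SOCS inhibitors, 3 were higher and 1 lower at that p (6 and 0 without M1-CM replicate 1). *Cebpd*, a C/EBP factor of the acute phase response, was at 7.17, 8.32 and 10.9 CPM with M0-CM and 15.3, 18.7 and 18.8 CPM with M1-CM (log2FC 1.00, SE 0.26, adjusted p 0.989 in edgeR, 0.0982 and 0.0362 in DESeq2 on 9 and 6 samples). The kinase gene *Jak2* was at 53.1, 61 and 53.1 CPM with M0-CM and 80.6, 77.2 and 68.3 CPM with M1-CM (log2FC 0.44, SE 0.13). *Elf3*, an epithelial ETS factor induced by cytokines, was at 0.263, 0.50 and 0.205 CPM with M0-CM and 1.58, 2.25 and 0.919 CPM with M1-CM (log2FC 2.29, SE 0.67). *Klf6* was the lower one, at 149, 181 and 166 CPM with M0-CM and 131, 132 and 139 CPM with M1-CM (log2FC -0.31, SE 0.13). *Stat3*, the transcription factor of the IL-6 pathway, was named after its values were seen, at 146, 147 and 148 CPM with M0-CM and 172, 165 and 146 CPM with M1-CM.

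**Figure D4:**
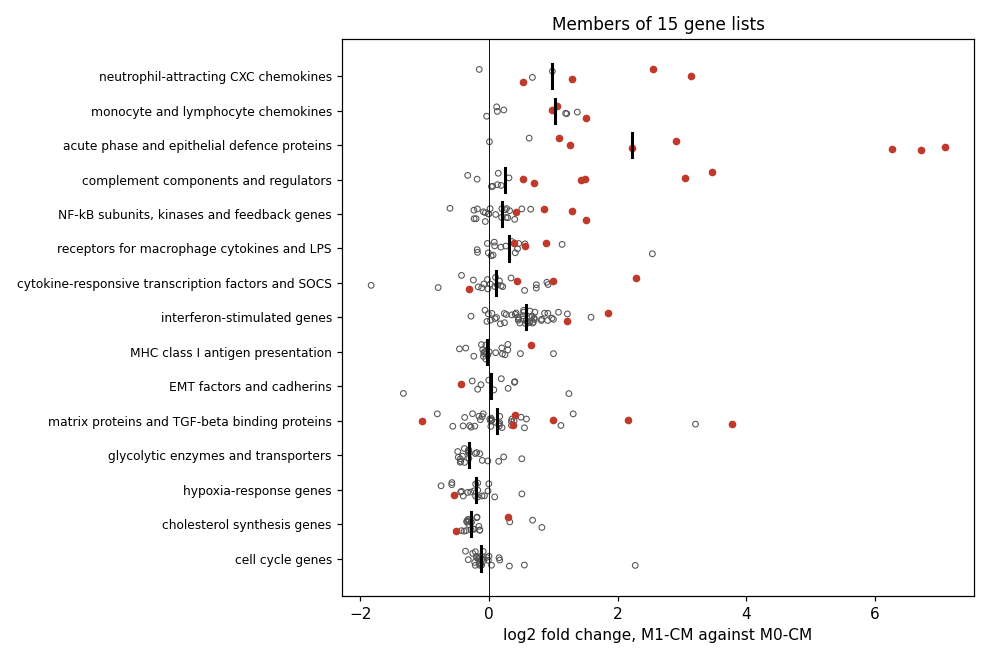
Log2FC of M1-CM against M0-CM (horizontal axis) of the tested members of 15 gene lists (rows). Red points have an unadjusted p under 0.05, open points do not, and black bars are the list medians. The chemokine, acute phase and complement lists reach far to the right, and the glycolytic, hypoxia, cholesterol and cell cycle lists lie mostly left of 0.

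Interferon-stimulated genes were low in replicate 1 of every medium, and none was called by edgeR between the media. Of 48 tested genes, 44 were higher in mean with M1-CM, and the list had a median log2FC of 0.57, but only 2 had an unadjusted p under 0.05. The median difference of these 48 genes from the mean of the M0-CM samples was -1.11, 0.57 and 0.48 (log2) in the M0-CM samples, -1.05, 1.31 and 1.05 in the M1-CM samples and -0.98, -0.06 and -0.02 in Ctrl. Replicate 1 was thus the low sample of all 3 groups. It was the lowest of its group for 46 of the 48 genes with M0-CM, for 44 with M1-CM and for 41 in Ctrl, while over all genes tested replicate 1 was the lowest for 38.5%, 27.7% and 36.0% of genes. No label says what the numbers stand for, so a day or batch behind them and the number itself cannot be told apart. The cause of the low replicate 1 was not tested. With the replicate number as a block in the edgeR fit, 6 of the 48 genes had an unadjusted p under 0.05. The median difference between the media was 0.19 without M1-CM replicate 2, 0.20 without M0-CM replicate 1 and 1.01 without M1-CM replicate 1, and in that last case 20 of 48 genes had an unadjusted p under 0.05.

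*Ifit1*, an antiviral RNA-binding protein named after its values were seen, showed the split, at 37.1, 118 and 105 CPM with M0-CM and 26.8, 192 and 169 CPM with M1-CM and 33.1, 76 and 77.6 CPM in Ctrl. *Gbp5*, a guanylate-binding protein induced by IFNγ, followed it with 0.336, 1.28 and 1.18 CPM with M0-CM and 0.48, 5.79 and 3.84 CPM with M1-CM (log2FC 1.85, SE 0.80). *Ifitm1*, a membrane protein that blocks viral entry, had its lowest sample in replicate 1 with M0-CM and in Ctrl (11, 24.2 and 19.4 CPM) but not with M1-CM. It was at 17.6, 26.2 and 30.2 CPM with M0-CM and 62.1, 52.5 and 57.9 CPM with M1-CM (log2FC 1.22, SE 0.29, adjusted p 0.989 in edgeR, 0.0266 and 0.000723 in DESeq2 on 9 and 6 samples). The genes of MHC class I antigen presentation also had a low replicate 1. It was the lowest of its group for 21 of 23 genes with M0-CM, 21 in Ctrl and 15 with M1-CM. Their median log2FC was -0.04, which lay between -0.20 and 0.13 with 1 sample left out. The class I gene *H2-D1* was at 1149, 1939 and 1947 CPM with M0-CM and 1403, 1112 and 2130.5 CPM with M1-CM. *H2-K1* was at 1019, 1769.6 and 1681 CPM with M0-CM and 1262, 1023 and 1947 CPM with M1-CM. The only member with an unadjusted p under 0.05 was *Nlrc5*, the transactivator of class I genes, at 103, 109 and 103 CPM with M0-CM and 125, 212 and 156 CPM with M1-CM (log2FC 0.65, SE 0.19). Checkpoint ligands and adenosine enzymes had 0 of 12 genes at an unadjusted p under 0.05 in edgeR, and 1 to 2 without any one of the M1-CM samples. Of these *Cd47*, the signal against phagocytosis, was at 199, 149 and 165 CPM with M0-CM and 148, 402 and 180.4 CPM with M1-CM, with replicate 2 alone high with M1-CM. Of the MHC class II genes, 5 of 10 were tested, with a median log2FC of 0.00488.

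**Figure D5:**
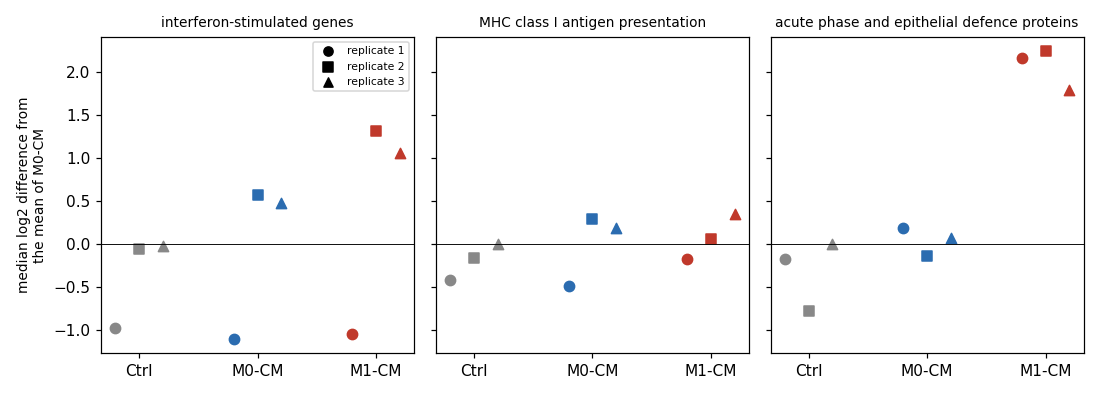
Median log2 difference of each sample from the mean of the 3 M0-CM samples (vertical axis), over the tested interferon-stimulated genes, MHC class I genes and acute phase genes (panels), by medium (horizontal axis). Shapes mark replicates 1, 2 and 3. In the left panel replicate 1 lies near -1 in every medium, and in the right panel all M1-CM samples lie between 1.79 and 2.24.

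Genes linked to epithelial-mesenchymal transition (EMT), in which epithelial cells take on a motile state, gave different pictures in the 2 lists used. The 11 genes that the study drew for M1-CM had log2FC values above 0, with a median of 2.16, and 9 had an unadjusted p under 0.05, but the study chose this list on these samples, so its direction is no independent evidence. The study drew them for M1-CM against untreated cells, a different comparison from the one against M0-CM. The list shares *Lcn2*, *Slpi*, *Cxcl1*, *Bcl3*, *Elf3* and *Ifitm3* with the groups above. *Enpp2*, which encodes autotaxin, the enzyme that makes lysophosphatidic acid, was at 1.93, 2.57 and 2.29 CPM with M0-CM and 12.1, 27.5 and 5.18 CPM with M1-CM (log2FC 2.72, SE 0.51, adjusted p 0.574 in edgeR, 3.64e-05 and 8.54e-05 in DESeq2 on 9 and 6 samples). The matrix proteins fibulin 2 (*Fbln2*) and the latent TGF-β binding protein *Ltbp2* had log2FC values of 3.77 (SE 0.78) and 2.16 (SE 0.40), and were called by DESeq2 on 9 and on 6 samples but not by edgeR. *Fbln2* was at 0.0439, 0.35 and 0.444 CPM with M0-CM and 3.52, 5.5 and 2.44 CPM with M1-CM. *Ltbp2* was at 1.01, 0.884 and 0.786 CPM with M0-CM and 5.65, 4.27 and 2.11 CPM with M1-CM. The gelatinase gene *Mmp9* was at 30.7, 26.6 and 28.2 CPM with M0-CM and 27.3, 113 and 67.8 CPM with M1-CM, so that replicate 1 overlapped with M0-CM. The list's lowest value was 0.04 (log2FC), for *Edil3*, which the study lists among the genes higher with M0-CM than in control. By contrast, of 12 tested EMT transcription factors, cadherins and structural genes 6 were higher and 6 lower, and *Vim* alone had an unadjusted p under 0.05. *Vim*, the intermediate filament vimentin that marks mesenchymal cells, was lower, at 2569, 2926 and 2949.9 CPM with M0-CM and 2067, 1658 and 2539 CPM with M1-CM (log2FC -0.43, SE 0.18). *Zeb1* and *Zeb2*, repressors of epithelial genes that were named after their values were seen, overlapped between the groups. *Zeb1* was at 47.3, 38 and 37.5 CPM with M0-CM and 40.1, 56.2 and 44.1 CPM with M1-CM. *Zeb2* was at 242, 213 and 198 CPM with M0-CM and 222, 261 and 208 CPM with M1-CM.

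Matrix genes were mixed. Among 40 tested matrix and TGF-β binding proteins, 5 were higher and 1 was lower at an unadjusted p under 0.05 (3 and 1 without M1-CM replicate 2, and 2 and 1 without M0-CM replicate 2). Besides *Fbln2* and *Ltbp2*, the higher ones were *Fbn1*, fibrillin 1, and the basement membrane and anchoring collagens *Col4a2* and *Col7a1*. *Fbn1* was at 6.77, 4.89 and 3.6 CPM with M0-CM and 11.2, 12.8 and 6.51 CPM with M1-CM. *Col4a2* was at 249, 237 and 219 CPM with M0-CM and 269, 350 and 292 CPM with M1-CM. *Col7a1* was at 16.9, 19.3 and 20.3 CPM with M0-CM and 27.3, 24.4 and 23.3 CPM with M1-CM, and of these 3 *Fbn1* alone overlapped between the groups. The lower one, *Vwa1*, a small matrix protein of basement membranes, was at 10.6, 10.01 and 9.12 CPM with M0-CM and 5.28, 3.71 and 5.48 CPM with M1-CM (log2FC -1.04, SE 0.22, adjusted p 0.847 in edgeR, 0.00264 and 0.0463 in DESeq2 on 9 and 6 samples). Of 22 proteases and inhibitors, 3 were higher and 2 lower at that p. Without M1-CM replicate 2 it was 1 and 2, and without M0-CM replicate 2 it was 2 and 0. *Adamts7*, a metalloprotease that cleaves matrix proteins, was at 70.9, 82.2 and 84.1 CPM with M0-CM and 101, 205 and 131 CPM with M1-CM (log2FC 0.88, SE 0.23). *Mmp13*, a collagenase, was near the limit of detection at 0.0877, 0 and 0 CPM with M0-CM and 0.768, 0.577 and 0.919 CPM with M1-CM. *Plau*, the urokinase plasminogen activator, was lower, at 46.1, 69.4 and 63.3 CPM with M0-CM and 41.1, 26.6 and 44.4 CPM with M1-CM (log2FC -0.67, SE 0.22). *Mmp24*, a membrane-bound metalloprotease, was also lower, at 1.1, 1.28 and 0.700 CPM with M0-CM and 0.336, 0.536 and 0.459 CPM with M1-CM. The endothelial-type adhesion molecule *Vcam1*, which binds leukocyte integrins, was at 19.4, 36.4 and 23.3 CPM with M0-CM and 64.5, 94 and 64.7 CPM with M1-CM (log2FC 1.5, SE 0.40, adjusted p 0.989 in edgeR, 0.0753 and 0.000301 in DESeq2 on 9 and 6 samples). In Ctrl *Vcam1* was at 24.7, 75.5 and 32.8 CPM, with replicate 2 inside the M1-CM range. Against Ctrl its log2FC was -0.75 for M0-CM and 0.75 for M1-CM. *Vcam1* was the only one of 10 tested adhesion genes with an unadjusted p under 0.05 between M1-CM and M0-CM.

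Glycolytic and hypoxia-response genes mostly had lower means with M1-CM, without calls. Of 21 tested glycolytic enzymes and transporters, 18 had a lower mean, with a median log2FC of -0.31, but 0 had an unadjusted p under 0.05 in edgeR. The median was -0.18 without M1-CM replicate 2, -0.17 without M0-CM replicate 3 and -0.48 without M1-CM replicate 3, where 2 genes were lower at that p. The pyruvate kinase gene *Pkm* was at 7176, 9504 and 9402 CPM with M0-CM and 6606, 4338 and 8688 CPM with M1-CM, with replicate 3 of M1-CM inside the M0-CM range. Against Ctrl, the median of this list was 0.58 for M0-CM and 0.18 for M1-CM, 2 comparisons that share the Ctrl samples. Those samples were uneven, with Ctrl replicate 2 the lowest of its group for 18 of the 21 genes. The median log2 differences from the mean of M0-CM were -0.35, -1.1 and -0.22 in Ctrl. With M1-CM they were -0.37, -0.52 and -0.02. Of 21 hypoxia-response genes, 19 had a lower mean (18 without M1-CM replicate 2), 6 had M1-CM samples that all lay below M0-CM, against 4.03% of all genes, and 1 had an unadjusted p under 0.05. The number at that p was 0 without M1-CM replicate 1 or 2 or M0-CM replicate 2 or 3, and 2 without M1-CM replicate 3. It was 5 with only the 6 samples in the edgeR fit and 3 with the replicate number as a block. The Ctrl samples, which enter the main fit, were uneven for this list, at -0.15, -1.32 and -0.39 (median log2 difference from the mean of M0-CM). The gene at that p in the main fit was *P4ha1*, a collagen prolyl hydroxylase, at 463, 558 and 559 CPM with M0-CM and 399, 254 and 431 CPM with M1-CM (log2FC -0.54, SE 0.24, edgeR adjusted p = 0.989). *Ndrg1*, a stress-response gene with strong induction by hypoxia, was at 1596, 1433 and 1680.5 CPM with M0-CM and 985, 1246 and 1240 CPM with M1-CM, and *Hif1a* itself, named after its values were seen, was at 416, 380.4 and 447 CPM with M0-CM and 449, 422 and 451 CPM with M1-CM (log2FC 0.09, SE 0.17).

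Cholesterol synthesis genes were lower in mean for 20 of 24, with a median log2FC of -0.28 that was -0.07 without M1-CM replicate 2 and -0.08 without M0-CM replicate 2. At an unadjusted p under 0.05, *Hsd17b7* was lower, at 139.5, 179 and 154 CPM with M0-CM and 104, 101 and 127 CPM with M1-CM. Among fatty acid and lipid droplet genes 3 of 20 were lower at that p, 1 without M0-CM replicate 2 or M1-CM replicate 1 or 2, and 5 without M1-CM replicate 3. *Pparg*, a nuclear receptor that controls lipid storage, was at 11.1, 14.4 and 10.8 CPM with M0-CM and 7.81, 7.07 and 7.55 CPM with M1-CM (log2FC -0.69, SE 0.17, edgeR adjusted p = 0.989). *Plin4*, a lipid droplet coat protein, was at 60.2, 83.4 and 74.6 CPM with M0-CM and 41.3, 47 and 58.1 CPM with M1-CM. *Acox2*, a peroxisomal oxidase, was at 4.05, 3.1 and 1.3 CPM with M0-CM and 1.39, 1.24 and 1.64 CPM with M1-CM. The M1-CM samples of *Pparg* were close together and all below M0-CM.

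For redox and metal genes, single members stood out. Mitochondrial superoxide dismutase, *Sod2*, an NF-κB target, was at 67, 71.1 and 68.6 CPM with M0-CM and 123, 79.9 and 97.7 CPM with M1-CM (log2FC 0.54, SE 0.17), whereas the extracellular enzyme *Sod3* reached 267 CPM in M1-CM replicate 2 but 50.1 and 60.2 CPM in replicates 1 and 3, against 50.9, 29.2 and 39.7 CPM with M0-CM. Lower at an unadjusted p under 0.05 were the cystine transporter gene *Slc7a11* and sulfiredoxin, *Srxn1*, 2 of 23 redox genes, against 0 without M0-CM replicate 1 or 3 or M1-CM replicate 1, and 3 without M1-CM replicate 3. *Slc7a11* was at 35, 21.2 and 31.8 CPM with M0-CM and 14.9, 20.5 and 19.3 CPM with M1-CM. *Srxn1* was at 93.7, 102 and 102 CPM with M0-CM and 80.03, 67.4 and 88.1 CPM with M1-CM. *Nos2*, which encodes the inducible nitric oxide synthase, was named after its values were seen, and was at 48.8, 12.3 and 37.5 CPM with M0-CM and 46.9, 173 and 98.9 CPM with M1-CM, so that replicate 1 overlapped with M0-CM (log2FC 1.69, SE 0.90, edgeR adjusted p = 0.989). The transferrin receptor gene *Tfrc* was at 294, 272 and 260.4 CPM with M0-CM and 208, 115 and 222 CPM with M1-CM (log2FC -0.60, SE 0.23). The iron importer *Slc11a2* was at 41.3, 33.5 and 37.7 CPM with M0-CM and 54.4, 51.3 and 55.2 CPM with M1-CM (log2FC 0.52, SE 0.15), and neither gene overlapped between the groups. The metallothionein gene *Mt1* was at 560.5, 648 and 774 CPM with M0-CM and 383, 240.4 and 580.1 CPM with M1-CM. In Ctrl it was at 420, 299 and 429 CPM, inside the range of M1-CM and below all M0-CM samples, so that M0-CM was the group that stood out. The zinc importer *Slc39a4* had 0 counts in all M0-CM samples and 69, 41 and 20 with M1-CM, at least 16-fold more against a floor of 3 counts per library.

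Of 28 cell cycle genes, 21 had a lower mean with M1-CM, and in edgeR 0 had an unadjusted p under 0.05. Without M1-CM replicate 2, 17 were higher and 11 lower. Examples, taken for their high CPM, were *Top2a*, topoisomerase II, and *Mki67*, the Ki-67 antigen. *Top2a* was at 473, 548 and 428 CPM with M0-CM and 554, 310.2 and 441 CPM with M1-CM. *Mki67* was at 452, 293 and 278 CPM with M0-CM and 391, 439 and 311 CPM with M1-CM. Among 28 tested genes of cell death and lysosomal stress, 3 were higher at an unadjusted p under 0.05. *Dram1*, a lysosomal membrane protein linked to autophagy, was at 10.7, 11.9 and 10.6 CPM with M0-CM and 54.9, 46.5 and 29.5 CPM with M1-CM with a log2FC of 1.98 (SE 0.26), an adjusted p of 0.0761 by edgeR and of 3.53e-09 and 4.40e-10 by DESeq2 on 9 and 6 samples. The death receptor gene *Fas* was at 30.3, 25 and 24.5 CPM with M0-CM and 56.6, 36.9 and 42.5 CPM with M1-CM (log2FC 0.77, SE 0.18). The pore-forming *Gsdme* was at 20.8, 13.5 and 14 CPM with M0-CM and 22.3, 39.9 and 19.1 CPM with M1-CM.

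Several of the genes with the smallest p-values belonged to none of these groups. *B4galt5*, a galactosyltransferase, was at 40.3, 30.6 and 37.8 CPM with M0-CM and 66.1, 71.9 and 55.1 CPM with M1-CM. *H6pd*, which makes NADPH in the endoplasmic reticulum, was at 90.4, 84.6 and 85.1 CPM with M0-CM and 145, 152 and 114 CPM with M1-CM. *Atp8b4*, a predicted lipid flippase, was at 1.43, 1.33 and 0.94 CPM with M0-CM and 3.65, 6.06 and 3.84 CPM with M1-CM, and was called by both DESeq2 fits but not by edgeR. Of the genes with lower levels, the ribosomal protein pseudogene *Rps26-ps1* was at 16.3, 18.4 and 20.2 CPM with M0-CM and 6.71, 5.54 and 8.49 CPM with M1-CM and at 5.49, 4.62 and 4.99 CPM in Ctrl, so that M0-CM was the group that stood out. It gave a log2FC of -1.40 (SE 0.20, adjusted p 0.127 in edgeR, 1.07e-07 and 2.45e-05 in DESeq2 on 9 and 6 samples), and as a near copy of another gene its reads may be shared with it. *Ramp1*, a subunit of the CGRP receptor, was at 13.9, 20.4 and 15.9 CPM with M0-CM and 9.24, 4.86 and 5.15 CPM with M1-CM (log2FC -1.38, SE 0.28, adjusted p 0.829 in edgeR, 0.00325 and 0.0159 in DESeq2 on 9 and 6 samples). *Ckb*, the brain-type creatine kinase, was at 58.7, 97 and 81.7 CPM with M0-CM and 47.9, 35.5 and 44.5 CPM with M1-CM. *Ttc9* was at 12.7, 13.9 and 14.8 CPM with M0-CM and 9.35, 8.53 and 7.88 CPM with M1-CM, and *Fam167a* and *Ifrd1* were lower without overlap as well.

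Some of the largest fold changes belonged to entries that share exons with another gene. Commd1b had 0 counts in every M0-CM sample and was at 1.31, 10.5 and 3.64 CPM with M1-CM, but it overlaps *Commd1* and *B3gnt2* on the same strand and was also at 1.53, 0 and 0 CPM in Ctrl. *Yy2*, at 5.4, 2.15 and 0.29 CPM with M0-CM and 0, 0 and 0.0184 CPM with M1-CM, lies within *Mbtps2*, and Gm12992, at 5.21, 0.367 and 4.89 CPM with M0-CM and 0, 0 and 0 CPM with M1-CM, overlaps Gm12978. How reads in shared exons were divided is not given in the sources used here, so these values are uncertain and are given as listed.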

How the data were processed

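Per the labels and the study's methods, total RNA of Panc02 WT spheroids was sequenced as stranded paired reads, and the submitters' processing notes name HISAT2, StringTie and mm10. The authors deposited whole-number counts per gene. The study's methods say that StringTie gave the read counts per transcript. The annotation release, and how these became the gene table, are not given in the sources used here. From the 9-sample table, genes were filtered with filterByExpr, scaled by TMM and fitted with edgeR 4.0.16 (R 4.3.3), quasi-likelihood test, all 9 samples, contrast M1-CM minus M0-CM, with Benjamini-Hochberg adjustment over 19207 genes. A gene could pass the filter through the samples of a single group, as *Saa2*, *Saa3*, *Mmp13* and *Slc39a4* did through M1-CM. A call needed an adjusted p below 0.05 and a log2FC beyond 1 in either direction, and the floor was 3 counts per library. DESeq2 1.42.0 and limma-voom (limma 3.58.1), other scalings and filters, a replicate block and each M0-CM or M1-CM sample left out were alternatives. The pipeline was tested on simulated data. Replicate pairs differed by more than counting noise, so none was counted as a duplicate.

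Named genes were those called by edgeR or DESeq2, the 15 higher and 15 lower non-overlapping genes of smallest p with a mean of at least 1 CPM, list members with an unadjusted p under 0.05 (or, with fewer than 2 such, the most abundant), and cell type markers. Not all are printed, and some results are not reported here. The members and lists were chosen with earlier results of these data known. Positions are from GENCODE M21 on GRCm38, and 119 of 119 named genes were found. Tables of the other experiments of the series were not used here.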

Additional observations from a re-analysis of the deposited data

How the results depend on the processing

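*Cxcl5* kept its direction and its call in every alternative run. The number of genes called higher, 3 with edgeR on 9 samples, was 19 with the DESeq2 Wald test on 9 samples and 23 on the 6 M1-CM and M0-CM samples, and the number called lower, 0 with edgeR (189 at an unadjusted p under 0.05), was 10 and 8. It was 2 or 3 higher and 0 lower with limma-voom, both other scalings, both other count filters, the 6 samples alone, summed symbols or a lower fold limit. With 1 sample left out in turn, 1 to 6 genes were called higher, the 6 without M1-CM replicate 3. *Lcn2* lost its call with limma-voom (log2 fold change 7.05, adjusted p = 0.232), and *C3* with DESeq2 size factors in edgeR (3.50, adjusted p = 0.0571), with library totals (3.57, 0.0932) and with the 6 samples alone (3.51, 0.194). With a sample left out, *Lcn2* lay between 6.63 and 7.38 where its call was kept or lost, and between 6.63 and 7.32 where it was lost, and *C3* between 3.11 and 3.98, and between 3.11 and 3.59 where it was lost. The cause was not tested. With the replicate number as a block, 1 gene was called, *Cxcl5*, *Lcn2* was at 6.90 and *C3* at 3.53 (adjusted p = 0.16 each), and 6 interferon-stimulated genes instead of 2 had an unadjusted p under 0.05. The deviations of same-numbered M0-CM and M1-CM samples correlated at -0.0457, -0.173 and 0.157, while those of different numbers reached 0.263. These correlations are over all genes tested and leave out Ctrl, so they do not decide whether the numbers pair the samples. No label says that they do, so the number entered the fit only as a block in 1 alternative. The low replicate 1 of the interferon-stimulated genes was shared by all 3 media. Whether a number marks a shared day or batch is not given in the sources used here and was not tested. Gm49673, which shares exons with *Rnaset2a*, had a log2 fold change of -8.60, of -9.19 to 0 with a sample left out, and of 0 without M0-CM replicate 3, the only one of the 6 samples with counts of it. Of the medians of the gene lists under the alternatives, 271 moved by less than the spread between samples and 48 by more. Depth limits genes near the floor, where a few counts set the fold change.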
